A study of Mus musculus with 6 samples.

Results

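Promoter regions open in all 3 pluripotent states numbered 10410 of the 65518 accessible regions of the series, or 15.9%. They were chosen by measured peak positions: the peaks of the 3 deposited lists were pooled on chromosomes 1 to 19 and X, those sharing 1 bp or more were merged, and a merged region was kept where it held a peak of every list and was centred no more than 1 kb from an annotated protein-coding transcript start. These promoters made up 47.9% of the 21752 regions that held a peak of all 3 lists, and the other 11342 regions are called distal here. Their presence in every state and their nearness to a start therefore follow from the rule and are not results.

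Open chromatin was mapped with ATAC-seq, which relies on the insertion of sequencing adapters by Tn5 transposase into accessible DNA, in J1 mouse embryonic stem cells (ESCs, strain 129SV) and in expanded potential stem cells (EPSCs) converted from them. ESCs were grown in serum medium with leukemia inhibitory factor (LIF) and the 2i inhibitors CHIR99021 and PD0325901, on mouse embryonic fibroblast feeders or gelatin. D-EPSCs were kept in N2B27 with knockout serum replacement (KSR), LIF, CHIR99021, dimethindene maleate and minocycline hydrochloride. L-EPSCs were kept in DMEM/F12 with KSR, LIF, CHIR99021, PD0325901, A-419259, XAV939, JNK inhibitor VIII and SB203580, on feeders or gelatin, and both EPSC states were grown feeder-free before they were taken for ATAC-seq. Every state came from a single ESC line, and its 2 technical replicates are represented by 1 peak list of 28965 (ESC), 50225 (D-EPSC) or 46601 (L-EPSC) peaks on these chromosomes, with no peak height and no value per replicate. The differences below are therefore differences between 3 lists, with no replicate check and no test, the depth behind each list is unknown, and intervals (95%, Wilson for shares and order-statistic for medians) cover counting error only. In such bulk material, fewer cells with an open site and less opening per cell cannot be told apart.

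A promoter is the stretch around the site where RNA polymerase II begins transcription, and it is kept free of nucleosomes by bound factors and remodelers. In mammals most promoters of widely expressed genes lie in CpG islands, stretches rich in the CpG dinucleotide that are usually unmethylated, while many tissue-restricted genes have CpG-poor promoters. ATAC-seq therefore finds CpG-island promoters open in most cell types, whether or not the cells belong to the lineage that uses the gene most.

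To show what such promoters look like, the bases just upstream of the start are printed for members whose genes the study discusses. All come from the mm9 assembly (NCBIM37), read 5′ to 3′ on the strand of the gene, and end at the base before the annotated start, and bases annotated as UTR are left out. Capitals mark exact matches to short consensus sequences of promoter factors. Sox2 (chr3:34548777-34548926, plus strand), a core pluripotency factor, carried a GC box of the SP/KLF family 121 bases and a CCAAT box of NFY 58 bases upstream of its start:

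Sox2: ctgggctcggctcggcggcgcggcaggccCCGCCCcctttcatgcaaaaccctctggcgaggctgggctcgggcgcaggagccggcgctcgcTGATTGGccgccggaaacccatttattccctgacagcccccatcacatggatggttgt

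Esrrb (chr12:87810917-87811066, plus strand), an orphan nuclear receptor of the naive state, had 2 GC boxes and a CTCF core that overlaps the first of them. Zfp281 (chr1:138521328-138521477, plus strand), a zinc finger regulator of pluripotency, had 3 GC boxes and a CCAAT box. Eif4a2 (chr16:23107367-23107516, plus strand), an RNA helicase of translation initiation, had 2 GC boxes and the highest count of CpG dinucleotides, 20 in 150 bases.

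Esrrb: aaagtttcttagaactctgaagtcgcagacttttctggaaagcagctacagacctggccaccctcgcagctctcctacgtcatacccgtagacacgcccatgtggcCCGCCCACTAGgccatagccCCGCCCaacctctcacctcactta
Zfp281: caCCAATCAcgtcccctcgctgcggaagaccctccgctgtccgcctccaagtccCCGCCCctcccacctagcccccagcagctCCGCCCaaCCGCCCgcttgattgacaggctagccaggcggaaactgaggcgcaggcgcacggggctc
Eif4a2: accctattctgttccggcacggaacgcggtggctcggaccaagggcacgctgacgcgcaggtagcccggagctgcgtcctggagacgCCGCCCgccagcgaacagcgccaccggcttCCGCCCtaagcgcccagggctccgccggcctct

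The remaining 2 held no match to the letters searched. Pou5f1 (chr17:35646180-35646329, plus strand), which encodes Oct4, is shown because its member did not lie at the first start of the gene. The annotation gives 7 coding starts for Pou5f1, the first at position 35642982, and the member (35646363 to 35646954) covered none of them: relative to its first base the last start lies at -33 bp and the first at -3381 bp. The stretch held 3 CpG dinucleotides. Sdha (chr13:74487729-74487756, minus strand), a subunit of succinate dehydrogenase, leaves only 28 bases between its own start and that of the divergent gene Ccdc127.

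Pou5f1: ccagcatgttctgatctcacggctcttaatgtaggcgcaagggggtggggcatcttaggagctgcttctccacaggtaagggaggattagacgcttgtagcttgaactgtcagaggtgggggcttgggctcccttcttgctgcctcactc
Sdha: ggaggggcgtgttgcgcaggcgcagaat

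The members were compact and, within the 1 kb that the rule allows, mostly centred close to a start. Their merged width had a median of 886 bp (879 to 895), and the middle 90% lay between 445 and 1628 bp. A coding start was covered by 95.9% of them (95.5 to 96.3), and the midpoint lay within 250 bp of a start in 81.1%. Midpoints fell in a UTR exon in 40.3%, in an intron in 20.2%, in a coding exon in 12.1% and outside coding transcripts in 27.4%. Of distal midpoints 57.0% lay outside coding transcripts and 2.0% in a UTR exon. This contrast is largely set by the rule, which divides the regions by the place of the midpoint. Almost all members, 94.8%, were formed by 1 peak of each list, and 99.5% held at least 1 base covered in all 3 states. In the remaining 57 members the lists were joined by a chain of overlaps. The stretch covered in all 3 states had a median of 458 bp.

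Few members lay near the limit of the rule, with 178 (1.71%) more than 750 bp from a start. The outermost members belonged to 4930442H23Rik and Gpr37, each with its midpoint 1000 bp from the start. The nearest regions left out belonged to Zfhx4 (1001 bp) and 2810030E01Rik (1003 bp). The merged widths were 717 and 1379 bp inside the limit and 872 and 1705 bp outside it. In ESCs the peaks covered 506 and 1296 bp of the first pair and 872 and 848 bp of the second.

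To examine where the EPSC lists differed from the ESC list at these shared promoters, the bases covered by the peaks of each list were compared in the same region. The median member was covered over 534 bp (527 to 543) by ESC peaks, 772 bp (764 to 778) by D-EPSC peaks and 727 bp (719 to 735) by L-EPSC peaks. D-EPSC peaks covered more bases than ESC peaks in 81.9% of members (81.2 to 82.6), with a median ratio of 1.36 (1.34 to 1.37). L-EPSC peaks covered more than ESC peaks in 77.3% (76.5 to 78.1), with a median ratio of 1.27 (1.26 to 1.29). Both EPSC lists exceeded the ESC list in 70.9% of members and both fell short of it in 11.7%. Between the EPSC states the difference was small, with D-EPSC above L-EPSC in 58.5% (57.5 to 59.4) and a median ratio of 1.04 (1.04 to 1.05).

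The median shift from ESCs to EPSCs was smaller at distal regions open in all 3 states. Their median ratios were 1.17 (1.15 to 1.18) for D-EPSCs to ESCs and 1.16 (1.15 to 1.18) for L-EPSCs to ESCs, and D-EPSCs covered more than ESCs in 63.1% and L-EPSCs in 63.7%. Between the EPSC lists the median distal ratio was 1.00, with an interval that includes 1 (0.994 to 1.01). Of all 21752 regions of the 3 lists, 35.6% were covered 1.5 times or more as far in D-EPSCs as in ESCs and 9.11% were covered 1.5 times or more less far. Among members these shares were 40.8% and 2.95%. For L-EPSCs against ESCs the background was 32.6% and 8.66%, and members stood at 35.3% and 4.10%. For D-EPSCs against L-EPSCs it was 15.3% and 12.2%, and members stood at 12.6% and 5.47%. Of the distal regions alone, 30.9% in D-EPSCs and 30.0% in L-EPSCs were covered 1.5 times or more as far as in ESCs, and 14.8% and 12.8% 1.5 times or more less far. Distal regions thus changed in both directions, and members mainly towards wider EPSC peaks.

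**Figure D1:**
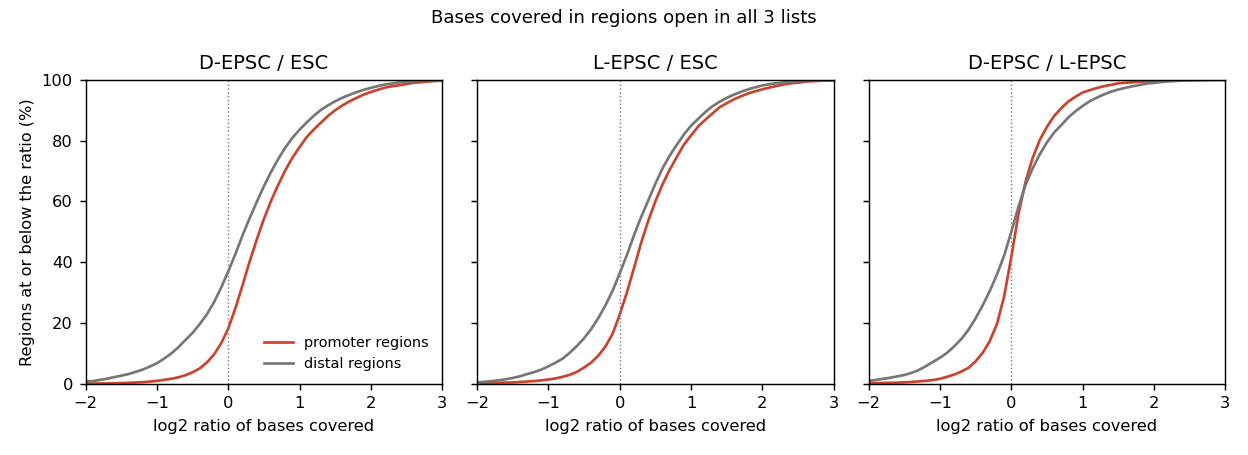
Cumulative share of regions (y axis, %) at or below each log2 ratio of bases covered (x axis) for the 3 pairs of lists, with promoter regions in red and distal regions in grey. Promoter regions lie to the right of distal regions against ESCs, with medians of 1.36 and 1.27 against 1.17 and 1.16, and their D-EPSC to L-EPSC ratios are packed more tightly around 1.

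The additional coverage lay mainly on the downstream side of the start. Among 4630 members with a single annotated start within 2 kb, ESC peaks reached a median of 241 bp upstream (233 to 249) and 254 bp downstream (245 to 263). D-EPSC peaks reached 298 bp upstream (290 to 304) and 415 bp downstream (404 to 425), and L-EPSC peaks 285 bp (276 to 291) and 393 bp (382 to 404). Within a promoter the upstream edge moved outward by a median of 53 bp (50 to 57) and the downstream edge by 99 bp (93 to 105) in D-EPSCs against ESCs. In L-EPSCs these shifts were 36 bp (33 to 40) and 83 bp (78 to 89). At 300 bp downstream of the start 38.7% of these promoters were covered by the ESC list, 65.3% by the D-EPSC list and 61.3% by the L-EPSC list, and at 300 bp upstream 34.8%, 48.2% and 44.8%. The start itself was covered in 77.2%, 91.6% and 89.5%.

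**Figure D2:**
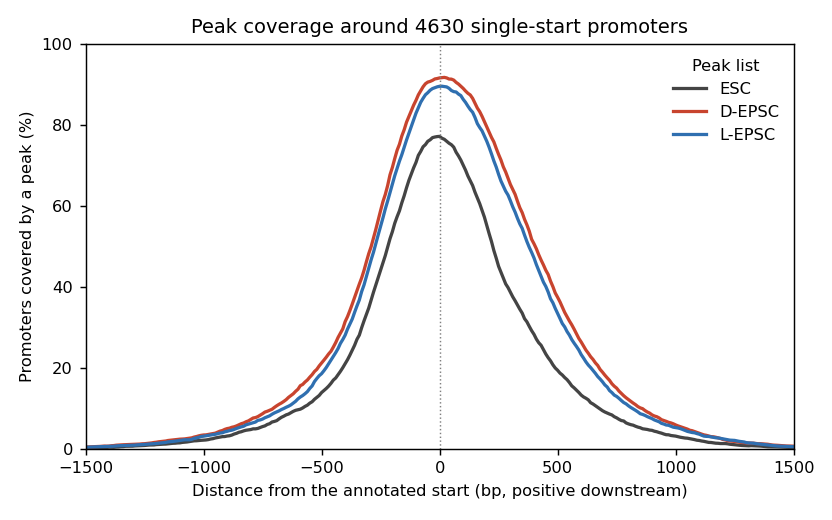
Share of 4630 single-start promoters covered by a peak (y axis, %) at each distance from the annotated start (x axis, bp, positive downstream), for the ESC, D-EPSC and L-EPSC lists. All 3 curves peak at or within 20 bp of the start, and the EPSC curves stand above the ESC curve most on the downstream side.

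The widest members are ranked by merged width, the union of the peaks of the 3 lists, and the stretch covered in all 3 could be far shorter. Hivep2, a zinc finger transcription factor gene, had the widest (2893 bp), covered over 920 (ESC), 2409 (D-EPSC) and 2411 bp (L-EPSC). Next came the member of Basp1 (2786 bp), covered over 168 bp in ESCs but 2580 bp (D-EPSC) and 2113 bp (L-EPSC), of which 145 bp were common to all 3. Rims2, a synaptic scaffold gene, had 703, 2561 and 2615 bp in the same order. The other 7 of the widest 10 belonged to Rreb1, Fbxo11, Nrp1, Zmiz1, Spry4 with 9630014M24Rik, Tubb2b and Phf21a. Tubb2b, a beta-tubulin gene, was the exception among them, with more bases in ESCs (2470 bp) than in D-EPSCs (2180 bp) or L-EPSCs (2382 bp).

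Members with 1 peak per list and at least 300 bp in the narrower list were ranked by their ratios, and the ends of the ranking are a description of the extremes. The highest D-EPSC to ESC ratio was at Ppp1r3g, a glycogen-targeting phosphatase subunit, covered over 300 (ESC), 1956 (D-EPSC) and 1228 bp (L-EPSC). Trio, Sema4c, Rnf145 and Hsp90ab1 followed, with 346, 336, 361 and 344 bp in ESCs and 1944, 1872, 1910 and 1817 bp in D-EPSCs. Hsp90ab1, the constitutive cytosolic HSP90 chaperone, also led the L-EPSC ranking with 2312 bp, a ratio of 6.72. Kit, the stem cell factor receptor, was covered over 363 (ESC), 1437 (D-EPSC) and 2366 bp (L-EPSC). The Spry4 and 9630014M24Rik member, Ank1 and Satb1 completed the highest L-EPSC ratios. Ank1, the erythrocyte ankyrin gene, set the EPSC states apart, with 322 (ESC), 403 (D-EPSC) and 1721 bp (L-EPSC).

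At the other end, Foxk2, a forkhead factor gene, was covered over 1250 (ESC), 346 (D-EPSC) and 663 bp (L-EPSC). Plcxd3, Cdk5r2, Meis3 and Rspo2 followed with D-EPSC to ESC ratios between 0.319 and 0.369. Meis3 kept 849 bp in L-EPSCs beside 954 bp in ESCs and 348 bp in D-EPSCs. The lowest L-EPSC to ESC ratios were at D19Wsu162e (1187 bp in ESCs, 874 bp in D-EPSCs, 328 bp in L-EPSCs), Gm10742, F11r, Fam5c and Map4k1 with Eif3k, between 0.276 and 0.362. In Gm10742, D-EPSC peaks covered more than ESC peaks (1721 against 1375 bp) while L-EPSC peaks covered 451 bp.

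To place these promoters in cell biology, coding genes were sorted into 20 lists and 5 gene families. A member lay within 1 kb of a start in 11141 of 22348 genes, which is 49.9% and the background for the counts of genes that follow. The share was higher for genes with several annotated starts (64.1%) than for genes with a single start (37.4%), and 396 genes had 2 or more members. The cAMP phosphodiesterase gene Pde4d and the protocadherin gene Pcdhgc5 had the most, 5 each.

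Genes of basic cell machinery were nearly all in the set. Of 327 genes in 10 lists of translation, protein turnover, energy and gene expression machinery, 294 had a member, or 89.9% (86.2 to 92.7). All 20 cytosolic aminoacyl-tRNA synthetases, which charge tRNAs, and all 8 subunits of the CCT chaperonin, which folds actin and tubulin, had one. So did 34 of 35 replication licensing and fork proteins, 31 of 32 core spliceosome proteins, 28 of 31 proteasome subunits, 32 of 36 subunits of respiratory complex I and 15 of 17 TCA cycle enzymes. The RNA polymerase II list and the translation initiation factors each had 31 of 35. The lowest share among these lists was that of the cytosolic ribosomal proteins, at 64 of 78 (82.1%).

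None of the 33 machinery genes without a member lacked a peak near a start. Of these, 30 had a peak within 1 kb of a start in both EPSC lists and none in the ESC list, 2 had peaks of all lists that did not form a member, and 1 had a D-EPSC peak alone. Of all 11207 coding genes without a member, 18.1% had a peak near a start in both EPSC lists and none in the ESC list, and 69.9% had no peak in any list, which is the background for such counts here and in the lists that follow. The 14 ribosomal protein genes left out included Rps9, Rpl4, Rpl8 and Rpl19, and 13 of the 14 had peaks in both EPSC lists alone, the exception being Rpl8 with a D-EPSC peak alone. The ribosomal protein members had medians of 361 (ESC), 560 (D-EPSC) and 576 bp (L-EPSC), below the 534, 772 and 727 bp of all members in each list, and Rps15a, a small-subunit protein, had 186, 520 and 637 bp.

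**Figure D3:**
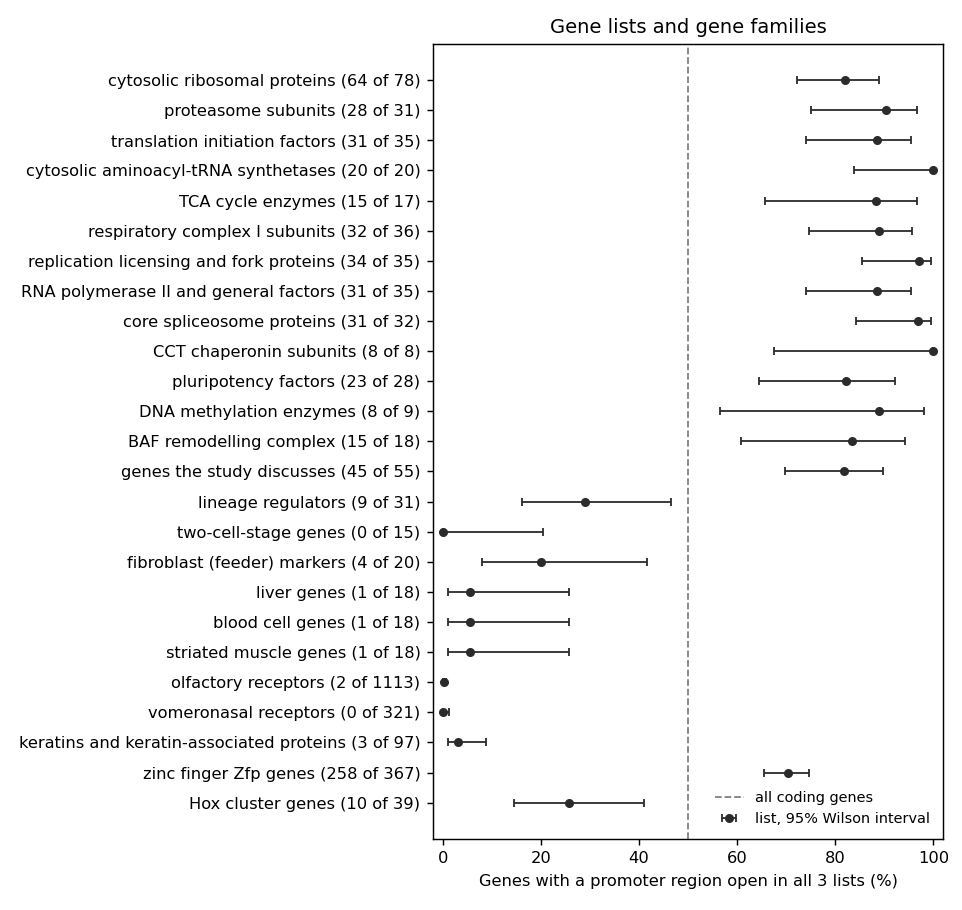
Share of the genes of each list or family that had a promoter region open in all 3 lists (x axis, %), with 95% Wilson intervals and the counts in the labels, beside the 49.9% of all coding genes (dashed line). The 10 machinery lists lie between 82.1% and 100%, and the olfactory and vomeronasal receptors lie near 0%.

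Within the machinery lists the lengths differed from gene to gene. Of their 292 regions, 107 were covered 1.5 times or more as far in D-EPSCs as in ESCs and 95 in L-EPSCs. All members stood at 40.8% and 35.3%, and all shared regions, distal ones included, at 35.6% and 32.6%. The median ratios were 1.30 and 1.29, beside 1.36 and 1.27 in all members. The energy genes that the study discusses went different ways. Ndufa9, a complex I subunit, was covered over 206 (ESC), 593 (D-EPSC) and 413 bp (L-EPSC). Sdha had 742, 587 and 883 bp, and Sdhb, the iron-sulfur subunit, 524, 670 and 478 bp. The complex I subunits Ndufs1 (575, 663 and 834 bp) and Ndufs3 (488, 567 and 455 bp) differed by less than 1.5 times between any 2 lists.

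Of the 292 machinery regions 247 were wider in D-EPSCs and 237 in L-EPSCs than in ESCs, beside 81.9% and 77.3% of all members, and 3 and 7 were covered 1.5 times or more less far, beside 2.95% and 4.10%. Among the translation initiation genes, Eif4g1, the scaffold of the cap-binding complex, had 235 (ESC), 880 (D-EPSC) and 1069 bp (L-EPSC), and the eIF3 subunit genes differed among themselves. Eif3b (457, 880 and 982 bp), Eif3m (374, 779 and 552 bp) and Eif3e (408, 620 and 579 bp) had wider peaks in both EPSC lists, Eif3c (514, 906 and 528 bp) mainly in D-EPSCs, and Eif3k (1472, 1145 and 533 bp) had its widest peak in ESCs. Eif4a2 was covered over 363 (ESC), 1375 (D-EPSC) and 799 bp (L-EPSC), and Eif6, an anti-association factor of the large ribosomal subunit, over 435, 665 and 373 bp. The replicative helicase subunits Mcm3 (568, 527 and 597 bp) and Mcm4 (733, 873 and 1015 bp) differed by less than 1.5 times. U2af2, a splice site recognition factor, was the widest spliceosome member, with 703, 2272 and 1947 bp. Polr2i, an RNA polymerase II subunit, went from 168 bp in ESCs to 1165 and 1651 bp. The narrowest member of that list, of the general factor gene Gtf2h3, was shared with the translation initiation gene Eif2b1 and had 128, 311 and 291 bp. Yars and Cct3, a tRNA synthetase and a chaperonin subunit, had their longest coverage in ESCs, at 1655 and 983 bp, against 1408 and 853 bp in D-EPSCs.

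Pluripotency genes were largely in the set as well, with 23 of 28 having a member. Sox2 was covered over 430 (ESC), 1736 (D-EPSC) and 1301 bp (L-EPSC). Esrrb had 488, 1217 and 959 bp, and its member lay at the last of 4 annotated starts. The proto-oncogene Mycn had 331, 1970 and 1283 bp, and Tfap2c, an AP-2 factor of the trophoblast and germ lines, 128, 716 and 536 bp. In each of these the ESC peak was the narrowest of the 3. Nr5a2, an orphan nuclear receptor, had 344, 592 and 1172 bp and was widest in L-EPSCs, as was the internal Pou5f1 member with 194, 249 and 558 bp. Lin28a, an RNA-binding repressor of let-7, was widest in D-EPSCs (705, 1503 and 923 bp), and so was Zfp281 (798, 1224 and 956 bp).

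A few went the other way. Fgf4, the autocrine growth factor of ESCs, was covered over 784 (ESC), 424 (D-EPSC) and 429 bp (L-EPSC). The signal transducer Stat3 had 1289 (ESC), 1229 (D-EPSC) and 653 bp (L-EPSC), and Prdm14, a repressor of differentiation, 311, 201 and 316 bp. Tbx3, Klf2 and Dppa5a varied little, Tbx3 between 687 and 714 bp. Over the 23 regions the medians were 433, 788 and 701 bp. Of these regions, 12 were covered 1.5 times or more as far in D-EPSCs as in ESCs and 2 the other way, and for L-EPSCs 10 and 2. In the same order all members stood at 40.8%, 2.95%, 35.3% and 4.10%. All shared regions, distal ones included, stood at 35.6%, 9.11%, 32.6% and 8.66%. The 5 genes without a member were Nanog, Dppa3, Gdf3, Nr0b1 and Tdgf1, of which all but Dppa3 had a peak near a start in both EPSC lists and none in the ESC list.

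**Figure D4:**
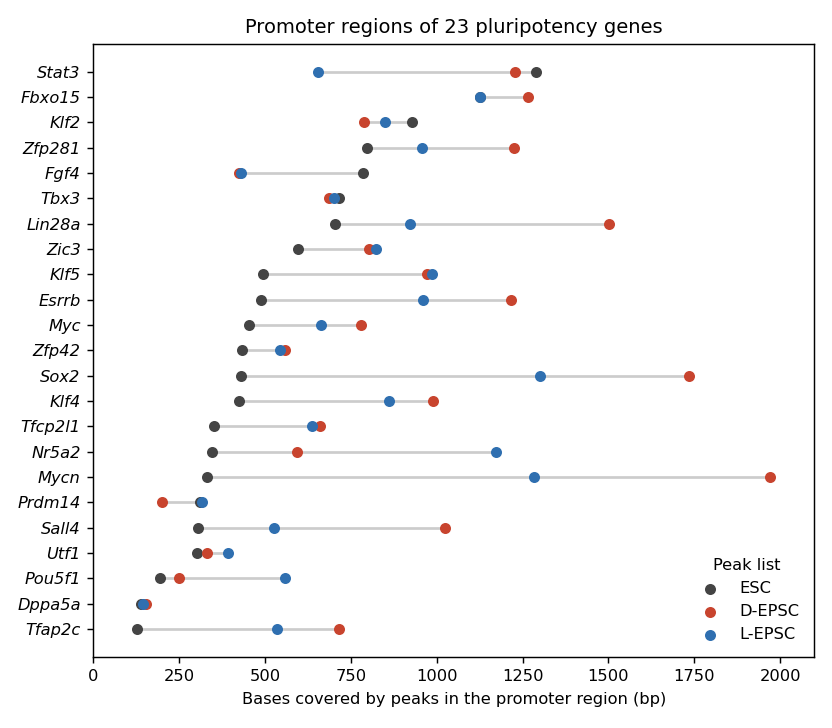
Bases covered (x axis, bp) in ESCs, D-EPSCs and L-EPSCs for the members of 23 pluripotency genes, ordered by the ESC value, with a grey line from the lowest to the highest list. ESC points lie leftmost for most genes, and Fgf4 and Stat3 are among the exceptions.

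The checks of cell identity gave the following values. Of 8 stem cell markers, 7 had a member, and Nanog did not. Among the 7, the Pou5f1 member covered none of the coding starts of its gene, and the Esrrb member covered only the last. Of 20 fibroblast markers, genes of the feeder cells among them, 4 had one: Vim, Col5a1, Pdgfra and Fbn1. Their coverage was 646, 396, 749 and 375 bp in ESCs, and the median over these 4 was 521 (ESC), 1328.5 (D-EPSC) and 1138 bp (L-EPSC). All 4 were wider in both EPSC lists than in ESCs, as were 70.9% of all members. The other 16 markers, Col1a1, Col1a2, Col3a1, Postn, Twist1 and Prrx1 among them, had no member. Of these 16, 9 had no peak near a start in any list. An ESC peak lay near a start in 3 of the 16, and peaks of both EPSC lists only in 2. Both EPSC states had been kept without feeders over several passages before ATAC-seq, per the study's methods. The part of feeder cells in any difference between the lists was not tested.

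Chromatin regulators were largely in the set too. Of 9 DNA methylation genes, 8 had a member, with Tet1 the exception. The de novo methyltransferase Dnmt3b was covered over 351 (ESC), 1154 (D-EPSC) and 678 bp (L-EPSC), and its cofactor Dnmt3l over 168, 789 and 423 bp. Dnmt3a differed less (346, 499 and 447 bp). Uhrf1, which recruits maintenance methylation, was the only one of the 8 with fewer bases in both EPSC lists than in ESCs, at 1222, 955 and 1221 bp. In the BAF remodelling complex 15 of 18 genes had a member. Of its ARID subunits, Arid1b (256, 1664 and 1238 bp) and Arid2 (168, 1276 and 1261 bp) had far wider EPSC peaks. The ESC peak of Arid2 was near the lowest width of that list. Arid1a (934, 1133 and 986 bp) did not have far wider EPSC peaks, and the ATPase gene Smarca4 (839, 986 and 897 bp) had nearly equal ones.

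Genes of the lineages, by contrast, were mostly outside the set. Of 31 lineage regulators 9 had a member: Pax6, Pax3, Neurog1, Olig2, Myod1, Eomes, Pdx1, Gata3 and Runx1. Pax6, a master factor of eye and forebrain, was covered over 307 (ESC), 647 (D-EPSC) and 527 bp (L-EPSC). Myod1, the muscle determination factor, had the fewest bases in L-EPSCs, at 674, 574 and 267 bp. Of the 22 others, 11 had a peak near a start in both EPSC lists and not in ESCs, among them Gata4, Gata6 and Cdx2, factors of the extraembryonic and gut lineages, and 5 had no peak at all. Of 39 Hox cluster genes, which pattern the body axis, 10 had a member. Hoxd1, Hoxd9 and Hoxd11 all had more bases in D-EPSCs (1009, 1024 and 900 bp) than in L-EPSCs (197, 314 and 205 bp), while Hoxc4 went the other way, with 852 (ESC), 193 (D-EPSC) and 828 bp (L-EPSC).

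Genes of differentiated tissues formed the other end. Of 54 liver, blood and striated muscle genes 3 had a member, Apob, Mpo and Ttn, and 44 had no peak within 1 kb of a start in any list. None of the 15 annotated 2-cell-stage genes, which mark totipotent-like cells, had a member, and 13 of them had no peak in any list. The list includes Zscan4c, Zscan4d and Zscan4f. Of 1113 olfactory receptor genes 2 had a member (Olfr658 and Olfr95), of 321 vomeronasal receptor genes 0, and of 97 keratin and keratin-associated protein genes 3 (Krt8, Krt18 and Krt19, the keratins of simple epithelia). How uniquely reads map to the genes of these families was not examined here. The large family of Zfp zinc finger genes behaved unlike them, with 258 of 367 (70.3%).

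CpG content separated the starts with a member from those without one. Members had a median CpG observed/expected ratio of 0.762 (0.758 to 0.765) and 63.1% GC, and distal regions 0.265 (0.261 to 0.269) and 51.9%. Starts were called CpG-rich where the 500 bp around them had a ratio of at least 0.75 and at least 55% GC, and CpG-poor below 0.48. Neighbouring starts of a gene share bases and members, so the intervals for starts are too narrow. Of 15213 CpG-rich starts, 84.7% (84.1 to 85.3) had a member, against 64.9% (64.0 to 65.8) of 10530 intermediate and 9.50% (9.11 to 9.92) of 20204 CpG-poor starts. No peak of any list lay within 1 kb of 1.33%, 11.9% and 76.5% of them. The share with a member climbed from 1.73% at ratios under 0.1 to 84.3% between 0.8 and 0.9, and lay between 83.3% and 85.3% in the steps above.

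**Figure D5:**
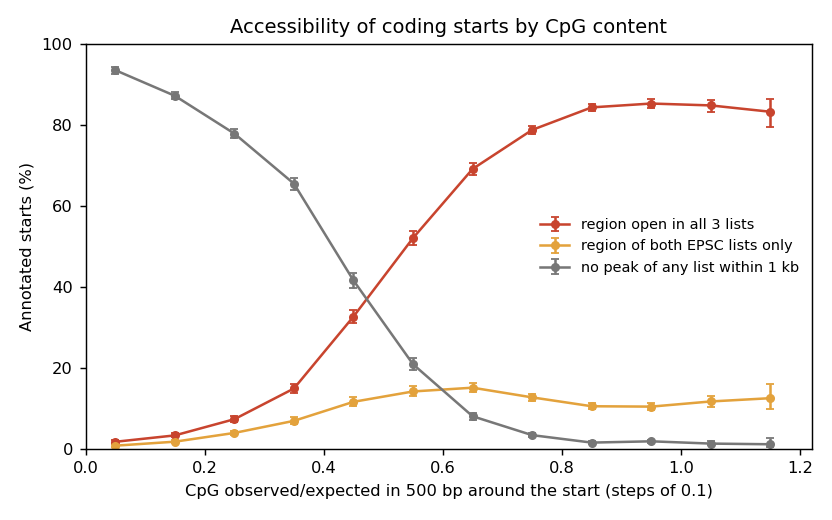
Share of annotated coding starts (y axis, %, with 95% Wilson intervals) with a member, with a region of both EPSC lists only, or with no peak within 1 kb, by CpG observed/expected in the 500 bp around the start (x axis, steps of 0.1). The share with a member rises from 1.73% to 85.3%, while the EPSC-only share stays between 0.768% and 15.1%.

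The width differences between the states were present in every CpG class. The 6340 members at CpG-rich starts were covered over medians of 581, 833 and 798 bp in ESCs, D-EPSCs and L-EPSCs, and the 897 at CpG-poor starts over 407, 550 and 504 bp. The median D-EPSC to ESC ratio was 1.37 (1.35 to 1.39) in the first and 1.32 (1.26 to 1.36) in the second. Strong narrowing in D-EPSCs was more frequent at CpG-poor starts, with 8.81% (7.12 to 10.8) covered 1.5 times or more less far than in ESCs, against 1.75% (1.46 to 2.10) at CpG-rich starts. Dppa5a and Phf21a are members at CpG-poor starts. Promoters open in both EPSC lists only, of which there were 2309, had a lower median ratio of 0.700 (0.690 to 0.712) than members and 64.1% GC. Of the starts with such a region 41.7% were CpG-rich and 21.3% CpG-poor, against 59.5% and 8.87% of the starts with a member. They were narrower, with medians of 518 bp (D-EPSC) and 420 bp (L-EPSC).

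Divergent promoters, where an oppositely oriented coding start lies within 1 kb upstream, were in the set more often than others. Of 2143 such genes 87.3% (85.8 to 88.6) had a member, against 45.9% (45.2 to 46.6) of the other 20205. A member centred within 1 kb of both starts counts for both genes, which raises the first share. A pair of divergent starts was covered by 869 members (8.35%). These had medians of 646 (ESC), 858 (D-EPSC) and 825 bp (L-EPSC), against 523, 763 and 715 bp in the other members. Their greater width is partly set by the condition that the region covers both starts. Their D-EPSC to ESC ratio was a little lower, at 1.29 (1.26 to 1.33) against 1.36 (1.35 to 1.38).

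To describe which factors could read these sequences, 14 short consensus sequences were searched in the 300 bp around each of 45947 starts, on both strands and with no mismatch. Neighbouring starts of a gene can share most of a window, so 1 match can count at several starts. The intervals treat starts as independent and are therefore too narrow. The same letters in reversed order are given beside each consensus. Reversal keeps the base composition but not always the CpG dinucleotides: the reversed ETS, CRE and E-box letters hold none, the reversed octamer gains one that the octamer lacks, and the reversed NRF1 letters hold more, so for these the comparison does not separate the motif from CpG content. The ETS consensus CCGGAAG was found at 17.8% (17.3 to 18.3) of the 21643 starts with a member, 2.59% (2.36 to 2.84) of the 16926 starts with no peak and 10.7% of all starts, and its reversed form at 6.03%, 5.06% and 5.45%. NRF1 (GCATGCGC) was at 4.86% of member starts, 0.573% of starts with no peak and 2.87% of all starts, and its reversed form at 0.356% of member starts. YY1 (AAGATGGCG) was at 3.91%, 0.349% and 2.15%, and reversed at 0.125% of member starts. CCAATCA of NFY was at 8.89%, 5.49% and 7.01%, and reversed at 1.20%. CRE (TGACGTCA) was at 2.98%, 0.620% and 1.95%, and reversed at 0.554%.

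The GC box, the commonest match, told less apart. GGGCGG was at 70.3% of member starts, 10.6% of starts with no peak and 45.3% of all starts, but the reversed letters were as frequent, at 70.2% and 10.8%. The TATA box TATAAA was scarcer at member starts (3.60%) than at starts with no peak (17.5%) or all starts (9.16%), and its reversed form also was (2.62%, 17.97% and 8.73%). AAGGTCA of Esrrb showed the same pattern, at 2.34%, 5.32% and 3.59%, with reversed letters at 3.04%, 6.49% and 4.41%. The octamer ATGCAAAT of Oct4 was at 0.915%, 1.47% and 1.18% in the same order, and reversed at 0.0693%, 0.177% and 0.104%. GGGTGTGG of Klf4 was at 3.37%, 3.13% and 3.32%, and reversed at 2.27%, 2.38% and 2.38%. CCCTCCCCC of Zfp281 was at 6.32%, 2.65% and 5.29%, and reversed at 6.39%, 2.35% and 5.20%, so that the letters and their reverse moved together for Esrrb and Zfp281. The E-box CACGTG was at 9.16%, 4.14% and 7.07%, and reversed at 5.79%, 5.08% and 5.68%. The GFY/Ronin letters ACTACAATT were at 0.564%, 0.130% and 0.350%, and reversed at 0.0370%, 0.230% and 0.118%. The CTCF core CCACTAG was at 2.33%, 2.26% and 2.31%, and reversed at 1.64%, 2.70% and 2.17%.

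Since CpG content differs so much between the sets, CpG-rich starts were also compared alone, an alternative chosen after the data were seen. ETS was then at 20.1% (19.4 to 20.8) of 12885 member starts and 13.7% (12.1 to 15.4) of 1671 starts with an EPSC-only region. YY1 was at 4.69% (4.34 to 5.07) and 2.39% (1.76 to 3.24), and NFY at 8.66% (8.19 to 9.16) and 4.01% (3.17 to 5.06). The GC box (79.9% and 81.0%) and CRE (3.68% and 3.65%) were as frequent in both. Zfp281 was the reverse, at 6.43% (6.02 to 6.86) and 9.58% (8.26 to 11.1), and so were its reversed letters, at 6.78% and 9.40%. The octamer was also scarcer at member starts, at 0.698% (0.569 to 0.858) against 1.44% (0.967 to 2.13). Only 203 CpG-rich starts had no peak, too few for a close comparison. Among them ETS was at 10.8% (7.27 to 15.9), NFY at 2.96% (1.36 to 6.30) and YY1 at 1.48% (0.504 to 4.25), each below member starts. CRE, at 2.46% (1.06 to 5.64), and Zfp281, at 7.39% (4.53 to 11.8), had intervals that include the value of member starts.

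Within 300 bp to either side of member starts the matches had preferred places. A match near several starts was counted once for each of them, at a different position. With positions counted from the start and negative upstream, the median was -78 for the CCAAT box, -50 for NRF1 and -44.5 for CRE. For YY1 it was 18, with 562 of its 1170 matches in the first 100 bp after the start. Of 6995 ETS matches, 2558 lay in the 100 bp before the start. Matches to Esrrb letters were spread, with 165 of 1270 in those 100 bp and 295 in the outermost 100 bp upstream.

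Members were found on every chromosome analysed. On the autosomes between 38.8% (chromosome 14) and 62.5% (chromosome 8) of coding genes had a member, and on the X chromosome 31.9% (29.0 to 34.9). Without the olfactory and vomeronasal receptor genes, of which the X has few, the autosomes spanned 40.6% to 62.8% and the X stood at 32.1% (29.2 to 35.2). The D-EPSC to ESC ratio of X-linked members, with a median of 1.37, lay within the autosomal range of 1.26 to 1.45.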

How the data were processed

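ATAC-seq peak lists of 6 mouse libraries, 2 technical replicates in each of 3 states, were analysed. Per the study's methods and processing notes, the authors trimmed reads (Trim Galore 0.6.3), aligned them to mm9 (Bowtie2 2.3.5), kept proper pairs (SAMtools 1.10) and called peaks with MACS at default settings. How replicates were combined, and whether duplicates, transposase offsets or blacklisted regions were treated, is not given in the sources used here. These steps can change how many weak peaks pass and where edges fall. The deposited lists hold a chromosome, start, end and peak name only.

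Peaks on chromosomes 1 to 19 and X were merged, and a region was assigned by its midpoint to coding transcripts of GENCODE M1 on NCBIM37, the assembly of mm9. Transcripts of protein-coding type gave 22348 genes. Bases covered are the summed peak lengths of a list in a region. CpG and motif values were read from the genome. Of 562 listed gene symbols 557 were in the annotation, some under older symbols. The members, lists, motifs and comparisons were chosen with earlier results of these data known. Named genes were the study's genes in each list or else its widest and narrowest members, the 10 widest members, the 5 highest and lowest ratios, and the regions next to the 1 kb limit; genes beyond these were chosen after their values were seen. Printed stretches are the upstream 150 bases of the motif window, shortened at annotated UTRs. A named gene and a sequence that this rule selects are not reported here.

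No test was run, because each state has 1 list. Alternatives were a base common to the 3 lists, an overlap of 100 bp, distances of 500 bp and 2.5 kb, the widest 50% or 28965 peaks of each list, the widest peak per region, other motif windows and a CpG limit of 0.6. Starts of all transcripts of coding genes, steps of ESC width and CpG-rich starts alone were added after the data were seen. Scripts ran in Python 3.11.15 (numpy 2.4.6, pandas 2.3.3, scipy 1.17.1) and were tested on simulated data against bedtools 2.31.1.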

Additional observations from a re-analysis of the deposited data

How the results depend on the processing

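No paired analysis was possible because each state has a single peak list with no value per replicate. The 9 main results had 68 values under 8 alternatives. Of these, 47 stayed within the interval of the reported value (for the number of regions, within 1.5 times) and 21 moved. A change of direction was possible only for shares and ratios that compare a pair of lists, and 0 of those changed direction. The number of members ranged from 7263 (widest 50% of each list) to 11096 (within 2.5 kb of a start). The share of genes with a member was 47.5% within 500 bp, 52.4% within 2.5 kb, 36.0% with the widest 50%, 47.4% with the widest 28965 peaks and 50.6% with starts of every transcript of a coding gene. In the same order the share covering a start was 98.6%, 90.0%, 97.7%, 97.0% and 95.5%. The median CpG observed/expected was 0.753 within 2.5 kb, 0.775 with the widest 50%, 0.768 with the widest 28965 peaks and 0.758 with every transcript's start. The share wider in D-EPSCs than in ESCs was 79.7% with the widest 50% and 83.3% with the widest 28965 peaks, and for L-EPSCs 75.02% and 78.9%. The median ratios fell to 1.25 (D-EPSC) and 1.19 (L-EPSC) with the widest 50%, and the L-EPSC ratio was 1.29 with the widest 28965 peaks. Equalising by width left the ESC list whole and removed only narrow EPSC peaks, so its values say nothing about list length or depth. Ratios within steps of ESC width are not read, because that width is their denominator. The depth of the lists is unknown, so a gene without a member is not shown to lack open chromatin, and some such genes had peaks of all 3 lists near a start that did not form a member.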

Other observations

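Some genes had several promoters open in all 3 states. Of the 396 genes with 2 or more members, 375 had 2, 16 had 3 and 5 had 4 or more: Pde4d, Pcdhgc5, Mtus1, Ank2 and Shroom3. Mtus1, Ank2 and Shroom3, the last an actin-binding regulator of cell shape, had 4 each. Among the genes with 3 were Lmna, which encodes the nuclear lamins A and C, the septin gene Sept9 and Tsc22d1. These 5 and 16 genes were named after their counts were seen.

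Members took up different parts of the 3 lists. They held 36.9% of ESC peaks and 47.9% of the bases those peaks cover, 20.9% of D-EPSC peaks and 36.7% of their bases, and 22.9% of L-EPSC peaks and 38.2% of their bases. In sum they covered 6.03 (ESC), 8.58 (D-EPSC) and 8.05 Mb (L-EPSC). ESC was the list with the fewest bases in 70.9% of members, L-EPSC in 16.8% and D-EPSC in 11.97%, and D-EPSC was the list with the most in 52.5%.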
